A study of Rattus norvegicus with 6 samples.

Results

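Of the 758 rat miRNAs on the array, 111 carry a registry number of 3000 or more, from miR-3064 to miR-7578, and these late-numbered miRNAs are described here. They were chosen by name alone, as entries of the form miR-N with N of at least 3000, any letter or arm suffix included. The other entries were 630 lower-numbered miRNAs and 17 let-7 entries, which have no number. Of the 111, 85 have numbers from 3064 to 3596, 2 are the arms of miR-5132, and 24 have numbers from 6215 to 7578. The entries nearest the limit were both arms of miR-3064 inside it, detected on 0 of 6 arrays, and miR-2985 outside it, detected on 6 of 6 arrays.

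The samples were myocardium of specific-pathogen-free male Sprague–Dawley rats, an outbred strain, taken 4 weeks after surgery, with 1 rat per array. In the 3 rats of the model group the left coronary artery was tied off at its anterior descending branch to cause a myocardial infarction (MI). The methods give the infarct margin as the tissue taken. In the 3 rats of the control group the thread was passed and not tied, and the sampling site was not given in the sources used here. The 6 arrays were single-colour Agilent Rat miRNA arrays hybridized with total RNA, and the rats of each group were a random subset of the animals operated on. An infarct margin mixes surviving muscle, scar and inflammatory cells, so that for every difference below fewer cells of a type and less RNA per cell cannot be told apart.

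A miRNA is a short RNA cut from a hairpin precursor, and its 5p and 3p names mark the arm it came from. It directs an Argonaute protein to messenger RNAs that pair with its seed, which is bases 2 to 8 from the 5′ end, and lowers their translation or stability. MiRNA numbers are given in order of registration, so a late number marks an entry that was registered late. Such entries often came from deep sequencing, and many are known from few species, but conservation was not measured here.

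The sequences below are RefSeq mature sequences on the rat assembly GRCr8, matched by name, which gave 99 of the 111. The first 3 are shown because these miRNAs passed the test between the groups. Capitals mark the seed.
miR-6215: uUUAGGGUugcagagccagg
miR-6216: gAUACACAgaggcaggaggagaa
miR-3473: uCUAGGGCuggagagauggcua
The gene of miR-6215 lies on chr5:157133953-157133972 on the minus strand, within the span of Iffo2, a gene of the intermediate filament family. MiR-6216 maps to chr3:65165595-65165617, minus strand, outside the span of any protein-coding gene. MiR-3473 maps to chr13:42051730-42051751, plus strand, within the span of Zranb3, which encodes a DNA remodelling enzyme of stalled replication forks.

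The next 8 are the miRNAs whose signal before scaling was lowest, or was missing, on model array 1, as described further on. Capitals again mark the seed.
miR-3085: uCUGGCUGcuauggcccccuc
miR-3102: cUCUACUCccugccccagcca
miR-3544: aACUCCUGcaugacgccguuccc
miR-3549: aUCUUGCCcgcaaagaccc
miR-3584-3p: gCCCGCAUcucuggauccc
miR-5132-3p: cCUGAUGUuccccgucccgcagc
miR-6328: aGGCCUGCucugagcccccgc
miR-6333: uAGGCUGGacuugaacagcccgc
Their C content ran from 30.4% of bases in miR-6333 to 57.1% in miR-3102, and miR-3544, miR-3549 and miR-3584-3p end in CCC. The other late-numbered miRNAs that were tested ran from 9.09% in miR-3562 to 61.1% in miR-3541. MiR-3584-3p maps to chr1:256727542-256727560 within the span of Itprip, miR-5132-3p lies within Irak1, a kinase of interleukin-1 and Toll-like receptor signalling, and miR-6328 lies within Ppp1r18, which encodes a partner of protein phosphatase 1.

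The remaining 8 that were detected often enough to be tested complete the set of 19.
miR-3084a-3p: uUCUGCCAguccccuucagaca
miR-3541: uCCCUCCCccucacugca
miR-3547: uGAGCACCaccccucucucagau
miR-3562: uUGGGGCAguggcuggauggga
miR-3573-3p: uUCCUAACucugcccccucccau
miR-3584-5p: gGGAGGAGuccaggaggc
miR-3588: uCACAAGUuagggucucaggga
miR-3593-3p: cUUCAACCuuaagggggccuca
Seeds were compared among the 685 array entries with a sequence. No seed of the 19 was shared there with another late-numbered miRNA, with a lower-numbered miRNA or with let-7 (0 of 19). Of the 19, 14 lie within the span of at least 1 protein-coding gene, strand not considered. MiR-3084a-3p has 2 copies, on chromosomes 6 and 19.

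A probe was counted as detected when its signal exceeded 3 times its error, and the signal of a miRNA is the sum of the background-subtracted intensities of its detected probes. Of the 111 miRNAs, 107 had 2 probes, 2 had 3 and 2 had 4, with 16 spots per miRNA. On the 6 arrays 27.2% to 29.3% of all miRNAs were detected, the lowest detected signal lay between 1.16 and 1.60, and 0 spots were saturated. All arrays were on 1 slide in 1 scan. The slide's first row held the 3 control arrays and model array 1, its second row model arrays 2 and 3. The tissue label was checked on miRNA markers. By the limma test used below, all 4 fibroblast or matrix markers were higher in the model group (summed signal 1770 to 2772 against 561 to 863 in the control group), 3 of 5 tested cardiomyocyte markers were lower (11750 to 15851 against 16568 to 26038), and miR-208b-3p was not detected. Both endothelial markers were lower (1120 to 1216 against 1187 to 1733). Of 2 tested red blood cell markers 1 was lower (217 to 243 against 283 to 339, with miR-144-3p and miR-144-5p not detected), and of 5 tested leukocyte markers 1 was higher and 1 lower (413 to 469 against 415 to 656, with miR-142-5p not detected). The part of these marker differences in the results below was not tested.

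Few late-numbered miRNAs were seen in this tissue. On all 6 arrays 17 of 111 (15.3%) were detected, against 171 of 630 lower-numbered miRNAs (27.1%) and 10 of 17 let-7 entries (58.8%). At least once, 21 of the 111 were detected, and 90 were detected on no array. The share detected on all arrays was 15.3% for numbers in the 3000s (13 of 85) and 16.7% for numbers from 6215 on (4 of 24), and neither arm of miR-5132 was on all 6. At 5 times the error in place of 3, 9 of 111 (8.11%) and 136 of 630 (21.6%) were detected on all arrays. The order of the 2 classes was the same at both limits, and no test was made over miRNAs, which share the arrays.

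The number of late-numbered miRNAs detected was 18, 20 and 19 on control arrays 1, 2 and 3 and 18, 21 and 20 on model arrays 1, 2 and 3. The groups overlapped (two-sided exact permutation test, p = 0.80, the smallest possible p being 0.10 with 3 arrays in each group). Their share of the summed signal of all miRNAs was 0.495%, 0.432% and 0.548% for the controls and 0.409%, 0.492% and 0.456% for the model group, again with overlap (two-sided exact permutation test, p = 0.40). The highest mean signal of any late-numbered miRNA was 48.4 and the median over the 17 was 14.8, while the lower-numbered miRNAs on all arrays reached 9374 with a median of 30.3. Signals of different probes depend on how each probe binds, so these values rank brightness and not copy number.

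**Figure D1:**
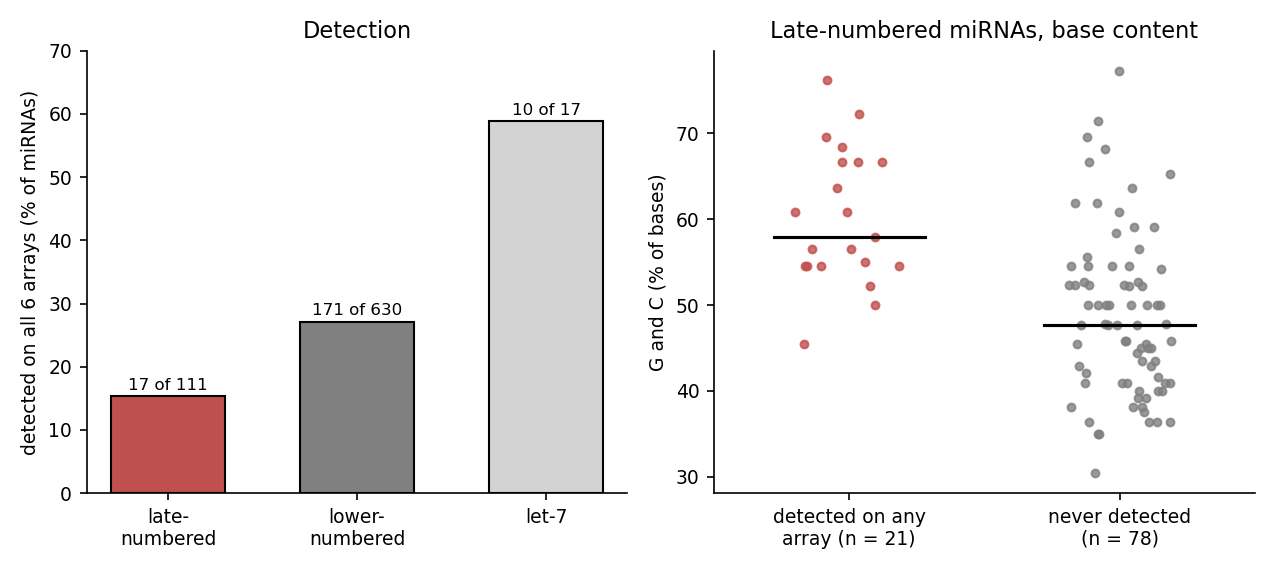
Left, share of miRNAs detected on all 6 arrays (%), for late-numbered, lower-numbered and let-7 entries, with the counts above the bars: 17 of 111, 171 of 630 and 10 of 17. Right, G and C content (% of bases) of late-numbered miRNAs with a RefSeq sequence, each point 1 miRNA and each line a median, 57.9% for the 21 detected on any array and 47.6% for the 78 never detected.

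The late-numbered miRNAs that were detected were in the median richer in C than those never detected, but not all of them were. Of the 17 detected on all arrays, 10 held more than 40% C. MiR-6216, miR-3473 and miR-6215, which passed the test between the groups, held 13.0%, 13.6% and 15.0%. The median G and C content of the detected members was 57.9% (21 miRNAs) against 47.6% for the 78 sequenced members never detected, and the median C content was 40.9% against 23.3%. Among the lower-numbered miRNAs the corresponding medians were 47.8% (184 detected) and 47.6% (386 never detected) for G and C and 22.7% and 22.5% for C. The plot of detection and base content shows that the detected members spread over the upper part of the range of those not detected, from 45.5% for miR-3068-3p to 76.2% for miR-6328. The 12 members without a sequence in the table, miR-3064-5p, miR-3072, miR-3084b-5p, miR-3568, miR-3577, both arms of miR-3586, miR-3593-5p, miR-6318, miR-6320, miR-6323 and miR-6334, were all among the 90 never detected.

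Arms of a late-numbered precursor were seldom seen together. Of late-numbered miRNAs as such, 15.3% were detected on all arrays, and lower-numbered precursors are not counted here. For 20 late-numbered precursors both arms were on the array. Both arms were detected on all 6 arrays for 1 of them, miR-3584, 1 arm was for 3, and for 14 precursors no arm was detected on any array.

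Of the 99 members with a sequence, 34 lie on the strand opposite another rat miRNA, so that the mature sequences of a pair are complementary over 1 to 22 bases. Sequences are given for 2 pairs, 1 with the late-numbered member detected and 1 without. Capitals mark the stretch that lies opposite the partner, and both sequences of a pair run 5′ to 3′.
miR-3588: UCACAAGUUAGGGUCUCAGGGA
miR-125b-5p: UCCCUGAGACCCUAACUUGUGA
miR-3596a: AACUAUACAACCUACUACCUCA
let-7a-5p: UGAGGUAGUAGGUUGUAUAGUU
The first pair occupies chr11:29732588-29732609 and the second chr8:50805219-50805240, with the late-numbered member on the minus strand of both. MiR-125b-5p is a relative of worm lin-4, and let-7a-5p belongs to a family that restrains growth and marks differentiated cells.

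Of these 34 members 3 were detected on all arrays (8.82%), against 14 of the 65 sequenced members that lie opposite no miRNA (21.5%). For 33 of the 34 the partner was also on the array. The partner was detected on all arrays for 15, at mean signals from 1.81 to 7179, and of these late-numbered members 14 were detected on no array. They include miR-3571 opposite the muscle miRNA miR-1-3p (mean signal 8561 in the control and 5798 in the model group), miR-3596a opposite let-7a-5p (2132 and 2450), and miR-3556a opposite miR-29a-3p, a repressor of collagen messages (1440 and 1525). Summed over all their probes, detected or not, the 14 had signals from -2.14 to 2.51. The exception was miR-3588, detected on all arrays opposite miR-125b-5p, whose mean signal was 1112 in the control and 1923 in the model group. The partner was detected on no array for 16 members, of which 3 were themselves detected on at least 1: miR-3544, miR-3549 and miR-3560, opposite miR-337-5p, miR-193a-5p and miR-501-3p.

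Among the entries with a sequence, members that share a seed with a lower-numbered or let-7 entry numbered 4. Sequences are shown for the 2 pairs whose partner passed the detection filter of the comparison, with the common seed in capitals.
miR-3573-5p: uGAGGGGCagugauagaaagga
miR-423-5p: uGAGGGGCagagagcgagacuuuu
miR-3596d: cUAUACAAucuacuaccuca
let-7b-3p: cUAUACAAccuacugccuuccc
MiR-3573-5p and miR-3596d were detected on 0 of 6 arrays. Their partners were dim, with mean signals of 3.99 in the control and 4.58 in the model group for miR-423-5p and of 16.4 and 15.8 for let-7b-3p.

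For the comparison of the groups, the signal of each array was divided by its 75th percentile over the 198 miRNAs detected on all arrays, raised to a common floor of -6.50 on the log2 scale where it was lower, and put on the log2 scale. The test, limma, was run on the 214 miRNAs that were detected on all 3 arrays of a group, 19 of them late-numbered. The median log2 fold change of the 214 was -0.14, so that values below are to be read against this shift. The split of all 214 into 22 higher and 27 lower at an adjusted p under 0.05 moved with the scaling, to 30 higher and 16 lower with arrays centred on the median deviation, 19 and 0 without scaling, and 19 and 47 when the 75th percentile was taken over all miRNAs.

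In the model group 2 of the 19 late-numbered miRNAs fell, miR-6215 and miR-6216 (10.5%, against 12.6% of all 214), and 1 rose, miR-3473 (5.26%, against 10.3% of all 214). Without adjustment, 5 of the 19 were lower and 1 higher at p under 0.05 (limma). Among the 185 lower-numbered miRNAs tested 44 were lower and 26 higher, and among 10 let-7 entries 2 and 3. With all arrays and this scaling, 0 late-numbered miRNAs differed by more than 2-fold, against 11 lower-numbered miRNAs that did in either direction whether called or not.

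The signal of miR-6216 was 37.3, 51.0 and 37.2 on control arrays 1, 2 and 3 and 31.6, 29.7 and 26.0 on model arrays 1, 2 and 3. Every model array lay below every control array, before and after scaling. On the scaled log2 level miR-6216 fell by 0.75 (SE 0.07, adjusted p = 0.0015, limma), from -1.94 ± 0.04 to -2.69 ± 0.01 (SD, n = 3 each). Both of its probes were lower, at 0.620 and 0.752 of the control mean without scaling.

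The signal of miR-6215 was 42.7, 54.6 and 47.7 in the control rats and 38.8, 37.5 and 31.0 in the model rats. The groups did not overlap here either. MiR-6215 fell by 0.68 on the log2 scale (SE 0.08, adjusted p = 0.0040, limma), from -1.72 ± 0.10 to -2.40 ± 0.04, and its probes were at 0.734 and 0.744 of the control mean without scaling. The adjusted p stayed under 0.05 without each array in turn for both miRNAs, at most 0.019 for miR-6216 and 0.025 for miR-6215. Without scaling the log2 fold changes were -0.51 and -0.43 with adjusted p = 0.21 and 0.26 (limma), and with the miRNA totals as deposited miR-6215 had an adjusted p of 0.13. The second slide row holds model arrays alone, so a fit with slide row as a blocking factor compares model array 1 by itself with the 3 controls. It gave -0.74 and -0.67 (adjusted p = 0.015 and 0.029, limma, with the lone array assumed to vary like the others).

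The signal of miR-3473 was 35.2, 45.4 and 36.6 in the control rats and 58.3, 64.8 and 50.3 in the model rats. All model arrays were above all control arrays. Its level rose by 0.33 (SE 0.09, adjusted p = 0.044, limma), from -2.03 ± 0.03 to -1.71 ± 0.12. This call was lost in 17 of 21 alternatives, with log2 fold changes from 0.05 to 0.57 that were positive in all 21. Among them, it was lost when any 1 array other than model array 1 was left out (adjusted p 0.062 to 0.24, limma) and in the fit of model array 1 alone against the controls (log2 fold change 0.23, adjusted p = 0.22, limma). One of its probes carried most of the signal, and the other, at 2.49 to 4.83, was detected on 4 of 6 arrays and not on control arrays 1 and 3.

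**Figure D2:**
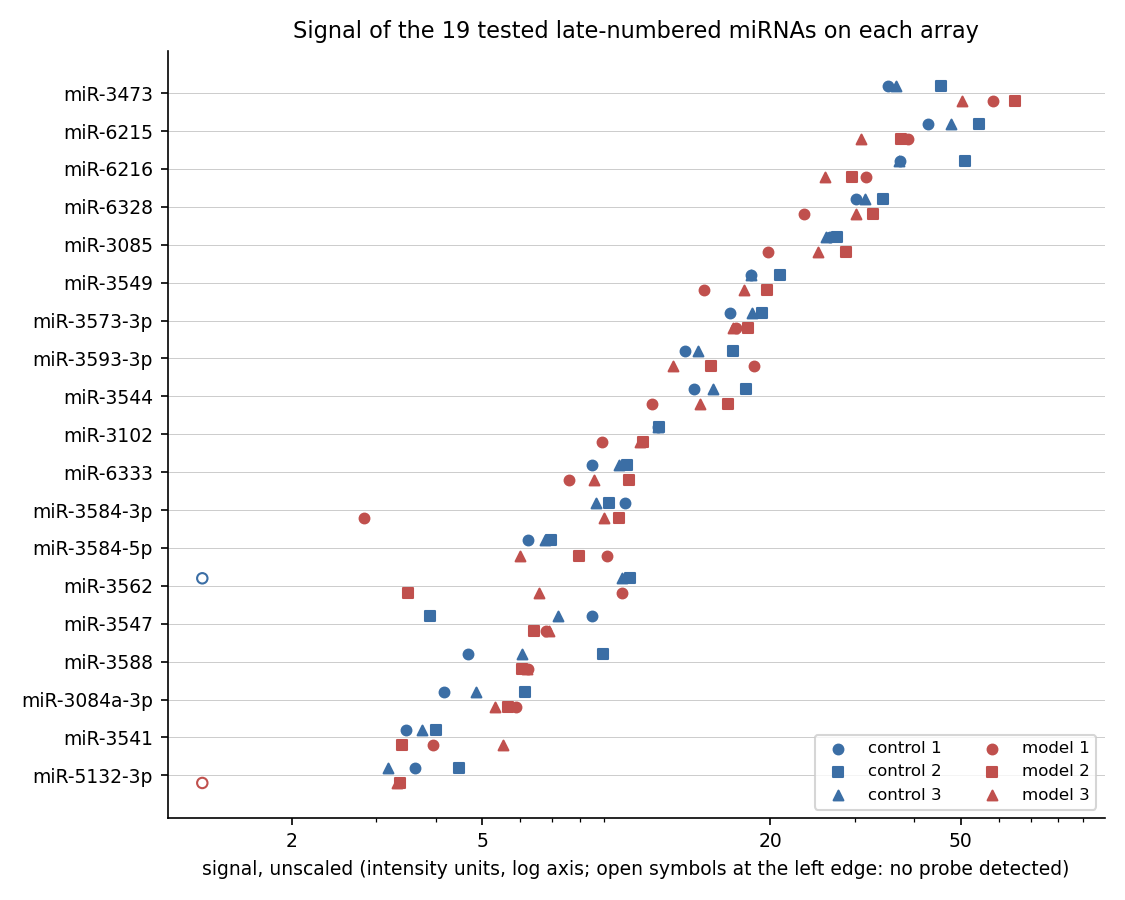
Signal of the 19 tested late-numbered miRNAs on each array (unscaled intensity units, log axis), with control arrays in blue and model arrays in red and open symbols where no probe was detected. At the top the colours part for miR-3473, from 50.3 to 64.8 on the model arrays against 35.2 to 45.4 on the control arrays, and for miR-6215 and miR-6216 in the other direction.

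The other 16 tested miRNAs did not pass the adjusted test. Of all 19, 18 had a log2 fold change below 0, with a median of -0.35 against -0.12 for the 185 lower-numbered miRNAs, of which 61.1% were below 0. The number below 0 was 14 of 19 with arrays centred on the median deviation, 12 of 19 without scaling and 10 of 19 with the totals as deposited, and the medians of the members were then -0.22, -0.11 and -0.01, beside 0.01, 0.12 and 0.16 for the lower-numbered. Without model array 1 the median was -0.23 over 20 members, against -0.10. After scaling, the control and model arrays did not overlap for 9 of the 19, 8 lower (42.1%) and 1 higher (5.26%), while over all 214 miRNAs 30.8% were lower without overlap and 16.4% higher. On the signal before scaling the groups did not overlap for the 3 called miRNAs and miR-3102. The share of all 214 without overlap on that signal was not counted.

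**Figure D3:**
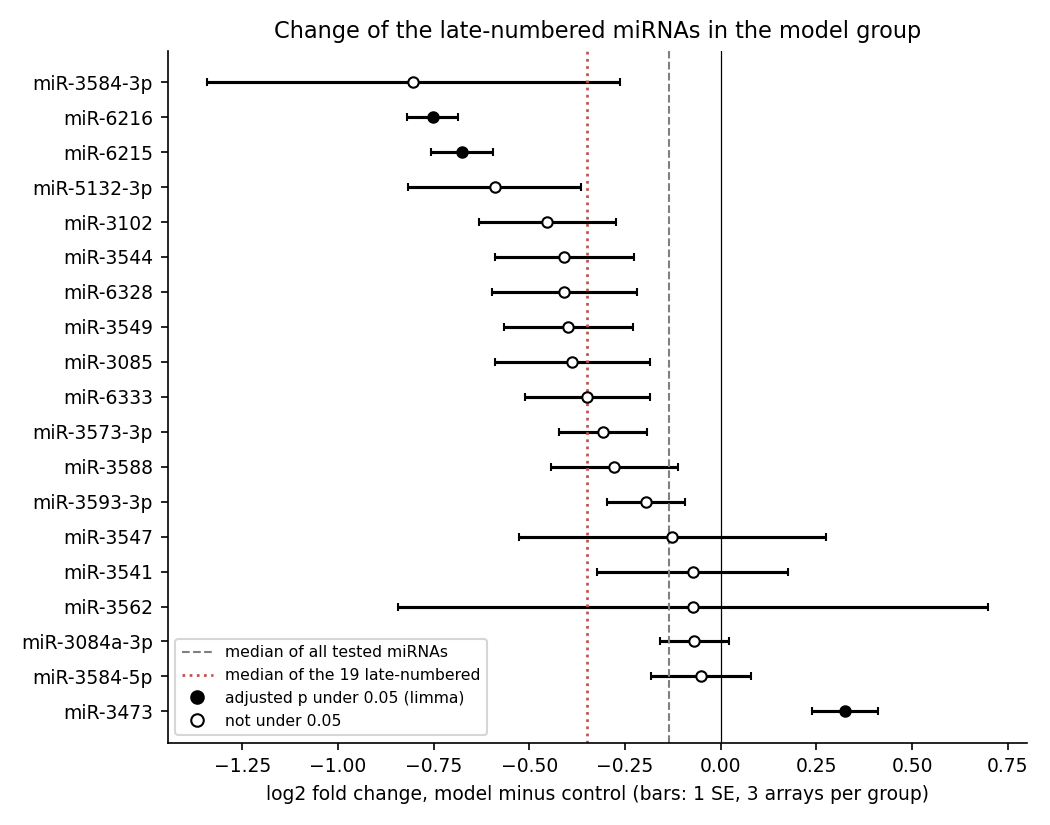
Log2 fold change of the 19 late-numbered miRNAs (model minus control, scaled level; bars are 1 SE of limma, 3 arrays per group). Filled points have an adjusted p under 0.05, and the lines mark the medians of the 19 (-0.35) and of all 214 tested miRNAs (-0.14).

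In 8 of these 16 miRNAs the lowest signal before scaling, or the missing one, came from model array 1. The signal of miR-6328 was 30.3, 34.4 and 31.6 on control arrays 1, 2 and 3, 23.5 on model array 1, and 32.8 and 30.2 on model arrays 2 and 3. That of miR-3085 was 26.6, 27.6, 26.2, 19.7, 28.7 and 25.1 in the same order of arrays. That of miR-3549 was 18.2, 21.0, 18.2, 14.5, 19.7 and 17.7. In each, on this signal before scaling, model arrays 2 and 3 lay within or beside the control range and model array 1 below it. MiR-3544, at 13.9, 17.8, 15.1, 11.3, 16.4 and 14.3, showed the same order. MiR-3102, at 11.7, 11.7, 11.7, 8.89, 10.83 and 10.66, was also low on model arrays 2 and 3. MiR-6333, at 8.48, 10.0, 9.66, 7.61, 10.1 and 8.56, had its lowest value there by a smaller margin. On the scaled level the log2 fold changes of these 6 were -0.35 to -0.45 with adjusted p from 0.12 to 0.20 (limma), and -0.20 to -0.33 without model array 1. On that level every model array lay below every control array for miR-6328, miR-3549, miR-3544 and miR-6333. For miR-3085 and miR-3102 the groups overlapped there. In the fit with slide row as a blocking factor, in which model array 1 is the whole model arm, 8 of the 19 members were lower at an adjusted p under 0.05 (limma), where 8.41% of all 214 miRNAs were. They were miR-6215, miR-6216, miR-3085, miR-3544, miR-3549, miR-3584-3p, miR-5132-3p and miR-6328. This count restates the low values of that array and is no further test of the groups. With the 75th percentile over all miRNAs as the divisor, 8 were lower as well, against 22% of all miRNAs.

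MiR-3584-3p had signals of 9.94, 9.19 and 8.65 on the control arrays, 2.83 on model array 1 and 9.65 and 8.99 on the others. On model array 1 one of its probes was at 2.96 times its error and was not counted, and the sum over both probes would be 5.61, still the lowest of the 6. Its log2 fold change was -0.80 (SE 0.54, adjusted p = 0.30, limma), and -0.20 without that array. MiR-5132-3p was at 3.62, 4.48, 3.18, not detected, 3.36 and 3.32, and its log2 fold change of -0.59 (SE 0.23, adjusted p = 0.12, limma) rests in part on a floored value. The other arm of its precursor was detected on 0 of 6 arrays.

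Over the 17 late-numbered miRNAs detected on all arrays, model array 1 held the lowest scaled level for 9 (52.9%), against 40 of 171 lower-numbered (23.4%). Before scaling it was 7 of 17 (41.2%) against 16 of 171 (9.36%). The level on model arrays 2 and 3 minus that on model array 1 had a median of 0.21 on the log2 scale for the late-numbered and 0.05 for the lower-numbered. The size depended on the scaling, with 0.03 and -0.12 without scaling, 0.09 and -0.02 with quantile normalization and 0.08 and -0.04 with the authors' values. With the tested miRNAs ranked by signal and cut into 3 bands of near-equal size, these medians were 0.23 and 0.16 in the dimmest band and 0.21 and 0.06 in the middle band, and the brightest band held 0 late-numbered miRNAs. Among control spots, the bright corner probe was also lowest on this array (62.2, against 73.4 to 92.4 on the other 5), and its part in the result was not tested.

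**Figure D4:**
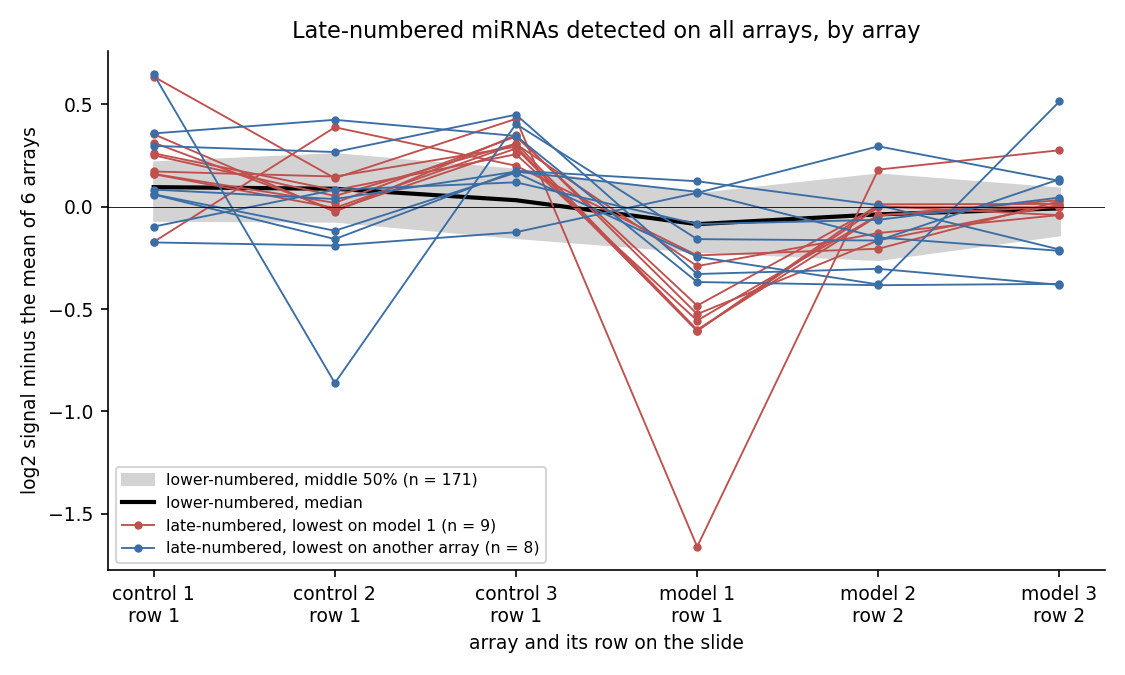
Level of the 17 late-numbered miRNAs detected on all arrays on each array (log2 signal minus the miRNA's mean over 6 arrays), in red where model array 1 was lowest (9) and in blue otherwise (8). The black line and grey band are the median and middle 50% of the 171 lower-numbered miRNAs, and the lowest red line is miR-3584-3p.

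The end of the mature sequence was compared with this pattern after the values were seen, and the counts are given as a description. The letters searched were CCC as the last 3 bases at the 3′ end of the mature sequence, which 13 of 685 sequenced miRNAs of the array hold (1.90%). Of these 3 are late-numbered (miR-3544, miR-3549 and miR-3584-3p), 9 are lower-numbered and 1 is a let-7 entry. All 13 were detected on all 6 arrays, 11 of them at 5 times the error, compared with 26.5% of miRNAs that do not end in C, 16.8% of those with a single C at the end and 28.6% of those with 2. Model array 1 was the lowest for 12 of the 13, against 40 of the other 169 sequenced miRNAs detected on all arrays. Its level minus the mean of the other 5 had a median of -0.63, against -0.10 for those 169. The 13 include the 3 late-numbered miRNAs whose low values on that array are described above. Among the 9 lower-numbered, model array 1 was the lowest for 8, with a median of -0.56. For late-numbered miRNAs without this end the median was -0.32 (14 miRNAs). It was -0.65 for the 4 of these with a single C at the end and -0.29 for the 10 that do not end in C. The 3 late-numbered miRNAs ending in CCC had a median of -0.73. Low values on model array 1 were thus not limited to that end among the late-numbered. Among lower-numbered miRNAs with a single C at the end the median was -0.07 (13 miRNAs).

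The remaining 8 tested miRNAs were lowest on several different arrays before scaling, and after scaling miR-3573-3p and miR-3588 were lowest on model array 1. MiR-3573-3p, within Efnb1, which encodes the signalling ligand ephrin-B1, was at 16.5, 19.2 and 18.3 in the control rats and 16.9, 18.0 and 16.7 in the model rats (log2 fold change -0.31, SE 0.11, adjusted p = 0.12, limma). MiR-3593-3p was at 13.3, 16.8 and 14.1 against 18.4, 15.0 and 12.5, with a log2 fold change of -0.20. MiR-3584-5p, the arm opposite miR-3584-3p in the same hairpin, was at 6.22, 6.97 and 6.76 against 9.11, 7.98 and 5.99, with a log2 fold change of -0.05. Before scaling, the groups overlapped in the signal of all of these. On the scaled level every model array lay below every control array for miR-3573-3p, and the groups overlapped for miR-3593-3p and miR-3584-5p. Unlike its partner arm, miR-3584-5p had its highest signal on model array 1.

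MiR-3588 was at 4.66, 8.96 and 6.06 in the control rats and 6.24, 6.06 and 6.21 in the model rats (log2 fold change -0.28, adjusted p = 0.26, limma). Only 1 of its 2 probes was detected. MiR-3084a-3p was at 4.16, 6.14 and 4.85 against 5.87, 5.66 and 5.32, also through 1 probe (-0.07). MiR-3541, within Clk2, a kinase of splicing factors, was at 3.47, 4.00 and 3.75 against 3.94, 3.40 and 5.52 (-0.07). The high value is from model array 3, the sole array on which both probes were detected. With both probes summed on every array, model array 3 was the lowest, at 5.52 against 5.81 to 6.71. The log2 fold change of miR-3541 was then -0.24 (adjusted p = 0.11, limma). MiR-3547 was at 8.48, 3.89 and 7.20 against 6.80, 6.43 and 6.90 (-0.13). On control array 2, 1 of its probes was not detected and not counted. The sum over both probes there would be 6.27, still the lowest of all arrays. For these dim miRNAs a probe near its limit changed the sum by a large part of its value.

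MiR-3562, within Cep131, a centrosome gene, was not detected on control array 1. It was at 10.2 and 9.78 on control arrays 2 and 3, and at 9.79, 3.50 and 6.58 in the model rats. Both probes were just under the limit on control array 1, at 2.88 and 2.97 times their error, and the log2 fold change of -0.07 (SE 0.77, adjusted p = 0.97, limma) depends on the floor. With all probes summed, detected or not, it was -0.43 (adjusted p = 0.21, limma).

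A pair of late-numbered miRNAs were detected without passing the filter. MiR-3068-3p was detected on 3 arrays, control array 2 and model arrays 2 and 3, at 1.61 to 2.45 through 1 of its 3 probes. MiR-3560 was detected on model array 2 alone, at 2.96. Both lay near the lowest detected signal of the arrays.

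The median SD within groups over those detected on all arrays was 0.23 on the log2 scale for the late-numbered miRNAs and 0.17 for the lower-numbered. This order turned without scaling (0.21 against 0.25), and the medians were level at 0.17 with quantile normalization and with the authors' values. Within bands of signal the medians were close, 0.24 for both in the dimmest band and 0.14 against 0.15 in the middle band. In the dimmest band 0 of 10 late-numbered miRNAs passed the adjusted limma test and 9 of 61 lower-numbered did. In the middle band 3 of 9 and 11 of 60 did.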

How the data were processed

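Total RNA of 6 rat hearts was measured on 6 single-colour arrays, grouped by the condition in the sample labels. The authors deposited the spot output of Agilent Feature Extraction 10.7.1.1 (named in the submitters' processing notes), which holds intensity values after background subtraction, without any scaling of one array to another, and a detection flag per miRNA. The authors also deposited normalized log2 values, whose method is not given in the sources used here. They served as an alternative.

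The total signal column adds, for some miRNAs, the total of the miRNA before it, so the signal was rebuilt from probes above 3 times their error. Scaling, floor, filter and the limma test (limma 3.58.1, R 4.3.3; Benjamini-Hochberg over the 214 miRNAs) are described with the results, and other steps used Python 3.11.15 with numpy 2.4.6, pandas 2.3.3 and, for figures, matplotlib 3.10.9. The fit was tested on simulated data with independent noise and 3-fold changes in 40 of 214 miRNAs. With all arrays and the main scaling, 0 late-numbered miRNAs differed by more than 2-fold, so the simulation does not bear on changes of their size. Precision is limited by 3 arrays per group and, for dim miRNAs, by the detection limit.

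The members, the marker lists and the tests were chosen with earlier results of these data known. All late-numbered miRNAs that passed the filter are named with the value on every array, those detected without passing with their range, and the rest are counted. Alternatives were the totals as deposited, other scalings, normexp background correction with an offset of 50, a low floor of 1, other detection filters, the methods' t-test, an intensity trend, blocks for replicate number and slide row, the authors' values, each array left out, and, added after seeing the data, the sum over all probes. Loci and gene spans came from RefSeq on GRCr8. The array files name no genome build.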

Additional observations from a re-analysis of the deposited data

How the results depend on the processing

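The fall of miR-6216 passed the test in 20 of 21 alternatives and that of miR-6215 in 19 of 21, with log2 fold changes from -0.88 to -0.33 and from -0.80 to -0.31. The number of late-numbered miRNAs lower in the model group was 2 with all arrays and 2 without each array in turn. It was 1 with the totals as deposited (miR-6216; 2 at an unadjusted p under 0.05), 8 with the 75th percentile over all miRNAs, 8 with slide row as a blocking factor, where the model arm is model array 1 alone, and 0 in limma without scaling (1 unadjusted). The number higher, 1 in the report, was 0 in limma with the totals as deposited, the 75th percentile over all miRNAs, normexp or slide row as a block (0 unadjusted in each) and 0 without scaling, with quantile normalization, a low floor, the replicate block, no detection filter or a filter for detection on all 6 arrays, with the sum over all probes and by the methods' t-test (1 unadjusted in each). Without each array in turn it ranged from 0 to 1. No pairing of the arrays by the replicate numbers of the labels was seen. Deviations from the group means correlated at -0.26, 0.0011 and 0.16 across miRNAs for same-numbered arrays, and at -0.22 to 0.21 for the others. With so few arrays this check cannot exclude a pairing. With the replicate block 2 members were lower and 0 higher. Over all miRNAs the counts of 22 higher and 27 lower became 35 and 1 with the totals as deposited, 6 and 3 without the detection filter, 12 and 4 with the replicate block, and 11 and 18 with slide row as a block. The lower count was 16 with quantile normalization, 11 by the methods' t-test and 14 with the authors' values. Without each array in turn the counts were 12 to 22 higher and 2 to 21 lower. Detection on all arrays held for 9 members at 5 times the error and for 17 to 18 without each array in turn. The median SD within groups was 0.17 for late-numbered and 0.17 for lower-numbered miRNAs with quantile normalization or the authors' values, and 0.21 against 0.25 without scaling. The median difference between model arrays 2 and 3 and model array 1 was 0.03 to 0.09 for the late-numbered and -0.12 to -0.02 for the lower-numbered under these 3 settings. Of 397 values of single members under an alternative, 326 kept their direction and side of the threshold or moved by less than 1 SD, 20 lost a call, 12 gained one, 39 moved by more, and 0 of the called values reversed. The causes were not tested.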
